A study of Homo sapiens with 8 samples.

Results

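In the human osteosarcoma line U-2 OS, a set of 925 chromatin immunoprecipitation sequencing (ChIP-seq) peaks was recovered by one rabbit antibody against the transcription factor Sp1 and not by another. These are the distal peaks of Sp1 antibody 2 only. They were chosen by 3 criteria, namely a position on chromosomes 1 to 22 or X, no base shared with any peak of Sp1 antibody 1, and a summit more than 1 kb from every annotated transcript start. They make up 15.7% (95% Wilson interval 14.8 to 16.7) of the 5882 antibody 2 peaks on these chromosomes. The choice used the positions of peaks in both Sp1 lists, so the absence of antibody 1 and the distance from start sites are properties of the definition and not findings.

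Antibody 1 (MA5-32497), antibody 2 (PA5-29165) and normal rabbit IgG (ab46540/1) were each used in 1 library from cells whose endogenous SP1 gene carries a V5-Halo tag. CTCF was recovered with ab128873 in 2 replicate libraries from C32, a single clone whose endogenous CTCF gene carries a FLAG-Halo tag (ATCC CRL-3625). All cells received 1% formaldehyde for 6 min and no other treatment. The lists held 8706 peaks for antibody 1, 5973 for antibody 2, 106 for IgG, and 42765 and 36082 for CTCF replicates 1 and 2. They carry no read counts, so depth is unknown, and with 1 library per Sp1 antibody no p-value was computed. Sp1 and CTCF were profiled in different tagged lines and not from the same chromatin.

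Sp1 is a zinc finger protein whose known site is the GC box, GGGCGG, a common element of CpG-rich promoters. C/EBP proteins are basic leucine zipper factors that bind as dimers to a palindrome of TTGC half-sites, pair with ATF proteins at composite sites, and act in mesenchymal differentiation and stress responses, often from enhancers. AP-1, the dimer of FOS and JUN proteins, binds TGACTCA and is a frequent occupant of enhancers in adherent cells. A word in a sequence is only a string of letters, and its presence does not show which protein was there.

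The sequences that bear most on the result are the bases from 50 bp before to 50 bp after the summits of 4 of the strongest peaks, read from hg38. Capitals mark the words defined here, on either strand, for C/EBP (TTGCGCAA or TTGCACAA), for the C/EBP and ATF composite (TTGCATCA), for AP-1 (TGACTCA) and for the GC box. None of these 4 windows held a C/EBP word, and the RGS9 window held a GC box. The peak of rank 4 by fold is not printed here, and its window held C/EBP words of both spellings and a GC box.
RGS9 intron, chr17:65123151-65123251, plus strand: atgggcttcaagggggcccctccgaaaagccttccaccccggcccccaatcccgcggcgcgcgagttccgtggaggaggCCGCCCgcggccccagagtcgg
NELL2 region, chr12:44948776-44948876, plus strand: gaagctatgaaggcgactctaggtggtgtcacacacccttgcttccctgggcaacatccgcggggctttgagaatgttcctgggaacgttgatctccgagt
MHENCR exon, chr20:63628410-63628510, plus strand: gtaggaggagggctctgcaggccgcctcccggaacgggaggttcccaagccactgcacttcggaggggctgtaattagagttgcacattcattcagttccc
ZFP36L1 region, chr14:68824921-68825021, plus strand: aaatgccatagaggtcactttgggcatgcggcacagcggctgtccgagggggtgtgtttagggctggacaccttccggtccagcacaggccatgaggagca

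The next windows are the strongest with an AP-1 word, the strongest with the composite word, and the 2 most significant peaks whose central sequence occurs more than once in the genome. The CXCL8 window also holds a C/EBP word, as does the RUNX2 window. TTACGCAA, a near relative of the C/EBP word that was picked after the values had been seen, is also in capitals.
CXCL8 region, chr4:73704703-73704803, plus strand: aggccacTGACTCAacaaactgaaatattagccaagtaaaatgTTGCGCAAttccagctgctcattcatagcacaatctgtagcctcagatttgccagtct
MACF1 intron, chr1:39392225-39392325, plus strand: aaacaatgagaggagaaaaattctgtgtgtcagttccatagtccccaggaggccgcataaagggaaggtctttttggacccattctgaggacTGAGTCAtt
RUNX2 intron, chr6:45445951-45446051, plus strand: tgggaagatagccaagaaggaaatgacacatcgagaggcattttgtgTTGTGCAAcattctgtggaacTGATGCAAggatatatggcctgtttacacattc
PRICKLE1 region, chr12:42961649-42961749, plus strand: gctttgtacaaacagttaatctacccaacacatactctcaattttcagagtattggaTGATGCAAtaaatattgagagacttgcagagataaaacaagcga
CFAP99 intron, chr4:2430117-2430217, plus strand: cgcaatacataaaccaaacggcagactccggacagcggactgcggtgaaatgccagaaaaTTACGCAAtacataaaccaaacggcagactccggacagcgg
ZDHHC11B region, chr5:727195-727295, plus strand: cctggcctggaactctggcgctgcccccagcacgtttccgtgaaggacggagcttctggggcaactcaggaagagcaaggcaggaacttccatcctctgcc

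The C/EBP word was by far the most common of the 20 words searched in this set. The GC box was rarer than in the other Sp1 peak sets compared. TTGCGCAA or TTGCACAA lay within 50 bp of the summit in 228 of 925 peaks (24.6%, 95% interval 21.98 to 27.53). Over all windows of the same length that tile the genome, with a centre more than 1 kb from a start, the share was 0.360%. In windows centred 500 bp to either side of the same summits it was 0.378%, an average of 3.5 peaks. The C/EBP-ATF composite word was found in 86 peaks (9.30%, 7.59 to 11.3), against 0.357% of genome windows and 0.270% of the neighbouring windows. Together the words marked 310 peaks (33.5%, 30.5 to 36.6), and only 4 peaks held both.

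The GC box, the word that defines an Sp1 site, was present in 51 peaks (5.51%, 4.22 to 7.18). This exceeded the 1.20% of genome windows and was 1.89 times the 2.92% of the neighbouring windows. The share was still lower than in other distal Sp1 peaks. The GC box was found in 34.8% (30.7 to 39.3) of the 468 distal antibody 2 peaks shared with antibody 1, and in 35.2% (32.1 to 38.5) of the 874 distal peaks of antibody 1 only. The difference from the shared distal peaks was -29.3 percentage points (95% Newcombe interval -33.9 to -24.8). Shared distal peaks were also richer in G and C (median 63.4% against 47.5%), and the part of base composition was not tested. For the GT box, GGGTGTGG, a variant Sp and KLF site, the counts were 8 peaks (0.865%) against 0.753% of genome windows.

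The C/EBP word was no more common in distal peaks that antibody 1 recovered than in genome windows. It occurred in 1 of 468 shared distal peaks (0.214%, 0.0377 to 1.20) and in 1 of 874 distal peaks of antibody 1 only (0.114%, 0.0202 to 0.645). Both intervals include the 0.360% of genome windows, so no depletion can be read from these counts. The difference between the 925 peaks and the shared distal peaks was 24.4 percentage points (21.6 to 27.3). At promoters, 57 of the 719 peaks of antibody 2 only held it (7.93%, 6.17 to 10.1), which was 16.7 percentage points lower than in the distal set (13.3 to 20.1). Of the 3770 promoter peaks shared by both antibodies, 31 did (0.822%). These intervals cover counting error only, because each antibody was represented by 1 library.

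**Figure D1:**
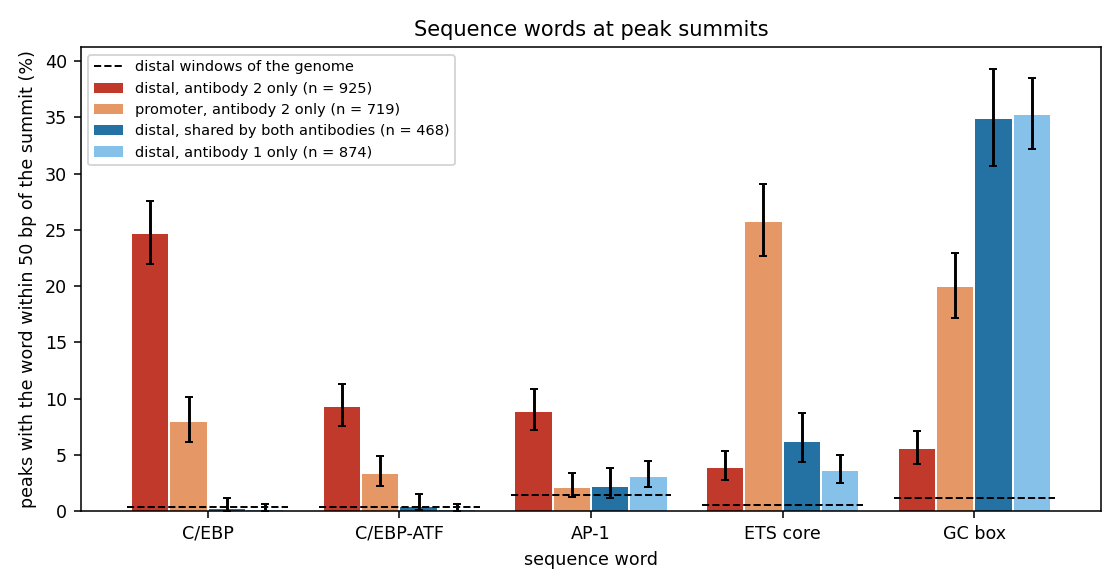
Bars give the share of peaks, in percent, with each word within 50 bp of the summit in 4 sets of Sp1 peaks, error bars are 95% Wilson intervals, and dashed lines give the share of distal windows of the genome of the same length. The C/EBP bar reaches 24.6% in the 925 distal peaks of antibody 2 only and 0.214% in the shared distal peaks, whereas the GC box is at 5.51% and 34.8%.

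AP-1 words were present in 82 peaks (8.86%, 7.20 to 10.9), against 1.48% of genome windows and 1.84% of neighbouring windows. The share was 6.73 percentage points higher than in shared distal peaks (4.31 to 8.96) and 6.78 points higher than in promoter peaks of antibody 2 only (4.65 to 8.94). The ETS core CCGGAA, bound by a large family of factors common at housekeeping promoters, was found in 36 peaks (3.89%, 2.82 to 5.34), against 0.565% of genome windows. It was found in 25.7% (22.7 to 29.0) of promoter peaks of antibody 2 only, a difference of -21.8 points (-25.3 to -18.5). Another ETS word, CAGGAAGT, showed no such difference. It was held by 23 peaks (2.49%), against 0.495% of genome windows and 2.64% of promoter peaks of antibody 2 only. The difference for CAGGAAGT was -0.156 points (-1.82 to 1.38). The runt factor word AACCACA was held by 34 peaks (3.68%) and the TEAD word ACATTCC by 27 (2.92%), against 1.89% and 1.63% of genome windows. The words for CREB, NRF1, STAT and TFIIIC were held by 0 of the 925, which at a limit of 3 counts allows a share of up to 0.324% each. Their shares of genome windows were 0.0301%, 0.138%, 0.223% and 0.0265%, all below that limit, so no depletion can be read from these counts.

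The C/EBP and composite words were centred on the summit, and AP-1, GC box and ETS core words were spread more widely around it. Within 200 bp of the summit, 244 peaks held a C/EBP word, and the centre of the nearest one lay less than 10 bp away in 168 of them (68.9%). Words spread evenly over this stretch would place 5% there. The median distance was 5.5 bp, with quartiles of 2.5 and 11.5 bp. For the composite word the values were 55 of 96 peaks (57.3%) under 10 bp and a median of 8 bp.

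AP-1 words lay to the side of the summit. Of the 211 peaks with one within 200 bp, 7 had it less than 10 bp away (3.32%), and the median distance was 65 bp. Between 25 and 50 bp there were 56 such peaks, and between 50 and 100 bp there were 57. The GC box was within 10 bp in 9 of 126 peaks (7.14%), with a median of 67.5 bp, and the ETS core in 6 of 84 (7.14%). In peaks with a C/EBP or composite word, 36 of 310 also held AP-1 within 50 bp (11.6%, 8.51 to 15.7), and in the remaining peaks 46 of 615 did (7.48%, 5.65 to 9.83). These intervals overlap.

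**Figure D2:**
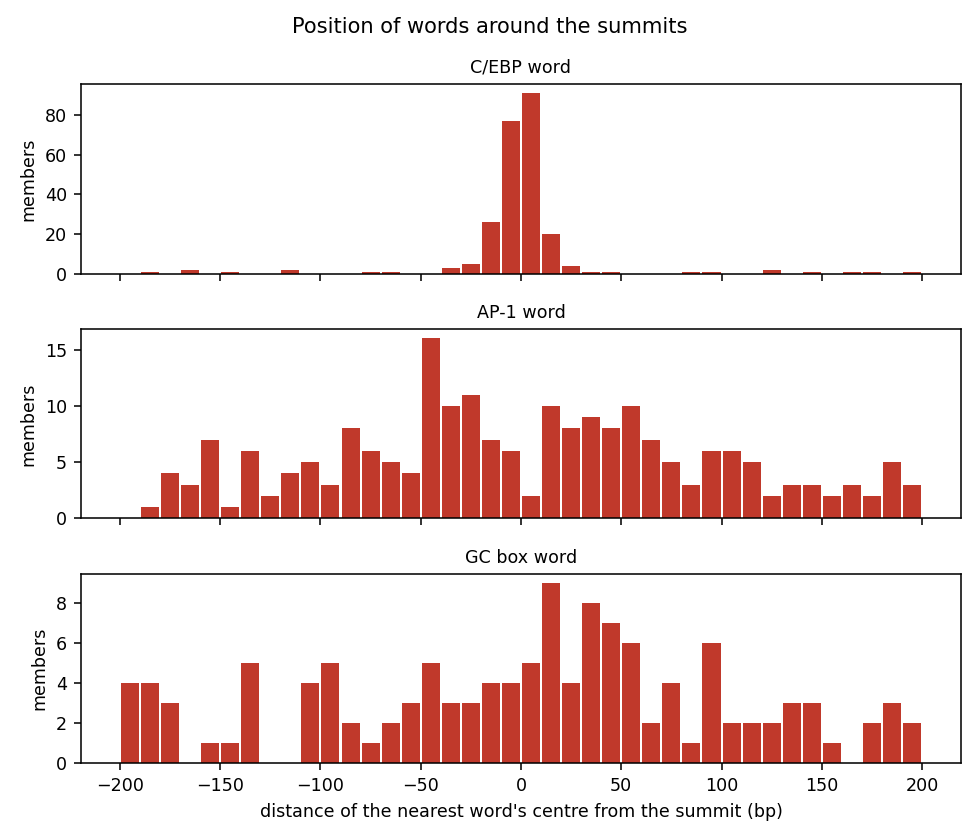
Histograms of the distance in bp from the summit to the centre of the nearest word, in bins of 10 bp, for peaks with that word within 200 bp. C/EBP words pile up at the summit, with 168 of 244 peaks less than 10 bp away. AP-1 and GC box words are spread more widely around it.

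The spellings differed in how often a genomic copy was in the set. TTGCGCAA was held by 114 peaks and TTGCACAA by 115, yet they differ greatly in number in the genome. More than 1 kb from a start, TTGCGCAA occurs 2700 times and TTGCACAA 101067 times. Per 100000 such occurrences, 4222 peaks of the set held TTGCGCAA and 114 held TTGCACAA. TTGCATCA was held by 86 peaks, or 83.4 per 100000 occurrences, and TGACTCA by 82 peaks, or 19.3 per 100000.

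Bases next to TTGCGCAA also differed from the genome. At the 114 peaks with this palindrome, the base before TT, read outward on both arms, was A or G in 200 of 228 arms (87.7%), against 42.6% of arms over all copies on the same chromosomes. The base was T in 2.63% of arms, against 30.2%. A purine at this place belongs to the known full C/EBP site. The arms of one palindrome share their peak and are not independent.

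The related spellings were found by counting all words of 8 bases, after values had been seen. They were ranked by the ratio of their count to the average count in neighbouring windows with 1 added. Picked on the 460 peaks of odd-numbered chromosomes, the word with the highest such ratio was TTGCGCAA, in 58 peaks. It was held by 56 of the 465 peaks on the other chromosomes (12.04%), where the neighbouring windows held it in 0. TGATGCAA, the composite word on its other strand, was held by 44 of those 465 (9.46%). Among the 569 peaks with neither a C/EBP, a composite nor an AP-1 word, TTACGCAA stood first with 25 peaks and 0 in neighbouring windows. TGACGCAA followed with 17 peaks, ATTGCGTA with 16 and TTGAGCAA with 30, against averages of 0, 0 and 1. Counting the C/EBP word with up to 1 mismatch raised the total to 422 of 925 peaks (45.6%, 42.4 to 48.8), against 10.0% of neighbouring windows.

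Peak strength is given by the authors' peak caller as fold enrichment over control. Its median was 7.06 in the 925 peaks (95% order-statistic interval 6.804 to 7.407), with quartiles of 4.51 and 9.70 and a range of 1.04 to 83.4. The median was 5.41 (5.14 to 5.66) in shared distal peaks and 6.65 (6.19 to 7.06) in promoter peaks of antibody 2 only. The set was also narrower than the shared distal peaks, with a median width of 380 against 521 bp. Distal peaks of antibody 1 only, at 386.5 bp, and promoter peaks of antibody 2 only, at 414 bp, were also narrower than the shared distal peaks. The base composition of the set was less rich in G and C than that of shared distal peaks, with medians of 47.5% and 63.4% within 50 bp of the summit. These values come from lists that defined the set and are given as a description.

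C/EBP words were concentrated in the strong peaks and repeated sequence in the weak ones. Ordered by fold and divided into 4 groups of equal size, from strongest to weakest, the share with the C/EBP word was 44.2%, 34.6%, 18.2% and 1.72%. The intervals of the first and the second group overlapped (37.9 to 50.6 and 28.8 to 41.0). Those of the others (13.7 to 23.7 and 0.672 to 4.35) overlapped no other. Of the 100 strongest peaks, 50 held the word. AP-1 words went from 14.3% in the strongest group to 3.02% in the weakest, and the GC box from 3.90% to 7.76%, with overlapping intervals for the latter. Peaks with the C/EBP word had a median fold of 8.99 (quartiles 7.52 and 13.4) and those without it 6.01 (4.00 and 8.53).

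**Figure D3:**
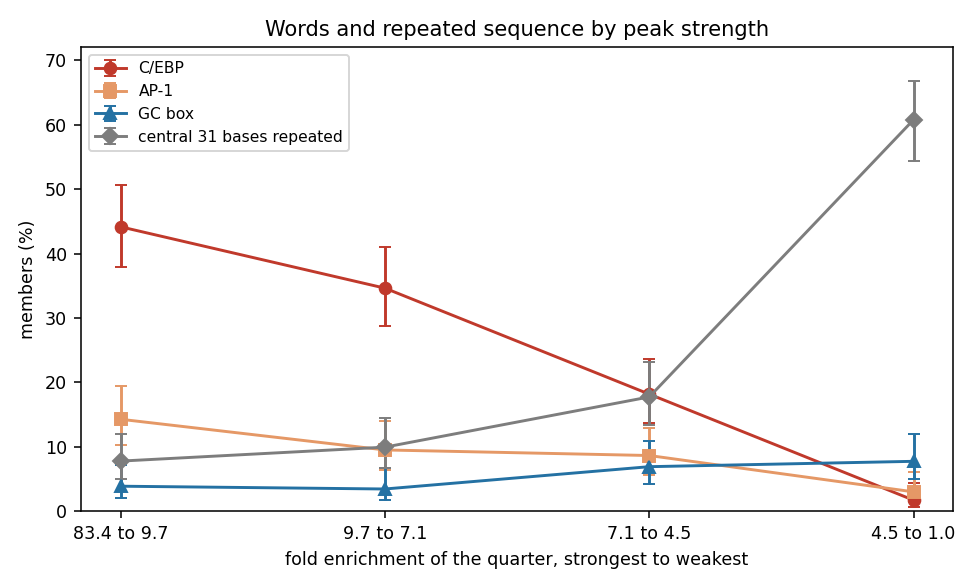
Share of peaks, in percent, with each word or with repeated central sequence in 4 groups of equal size of the 925 peaks ordered by fold enrichment, strongest at left, error bars being 95% Wilson intervals. The C/EBP share falls from 44.2% to 1.72% while the share with a repeated central 31 bases goes from 7.79% to 60.8%.

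The central 31 bases of a peak, counted on both strands of chromosomes 1 to 22, X and Y, occurred more than once in 223 of the 925 peaks (24.1%, 21.5 to 27.0). In 146 of them there were more than 10 copies. This share was 37.6% (33.3 to 42.1) in shared distal peaks and 6.26% (4.71 to 8.27) in promoter peaks of antibody 2 only. The repeated peaks had a median fold of 3.81 and the 702 single-copy peaks 7.67. Reads from repeated sequence can be harder to place, and how well reads could be placed at these peaks was not measured. The part of repeated sequence in the differences between sets was not tested.

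Single-copy and repeated peaks differed in the words they held. The C/EBP word was present in 211 of 702 single-copy peaks (30.1%) and in 17 of 223 repeated ones (7.62%). AP-1 was present in 10.5% and 3.59%. A fold under 4 was found in 124 of the repeated peaks and in 47 of the single-copy ones. In 11 peaks, all in the weakest group, the 100 bp to either side of the summit held ATTCC at least 10 times on one strand, the unit of human satellites 2 and 3.

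Some of the repeated peaks lay close together. The megabase chr10:40000001-41000000 held 17 peaks, 15 of them repeated, with a median fold of 1.85 and 0 C/EBP words. The next were chr21:8000001-9000000 with 8 peaks, and chr1:124000001-125000000 and chr13:17000001-18000000 with 7 each. Chromosome 10 held 73 peaks, or 0.548 per Mb, against 0.318 per Mb overall. With single-copy peaks alone the values were 0.353 and 0.241 per Mb. Single-copy density was highest on chromosome 19, at 0.513 per Mb, and lowest on X, at 0.0452 per Mb. The densities of other antibody 2 peaks by chromosome were not compared.

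**Figure D4:**
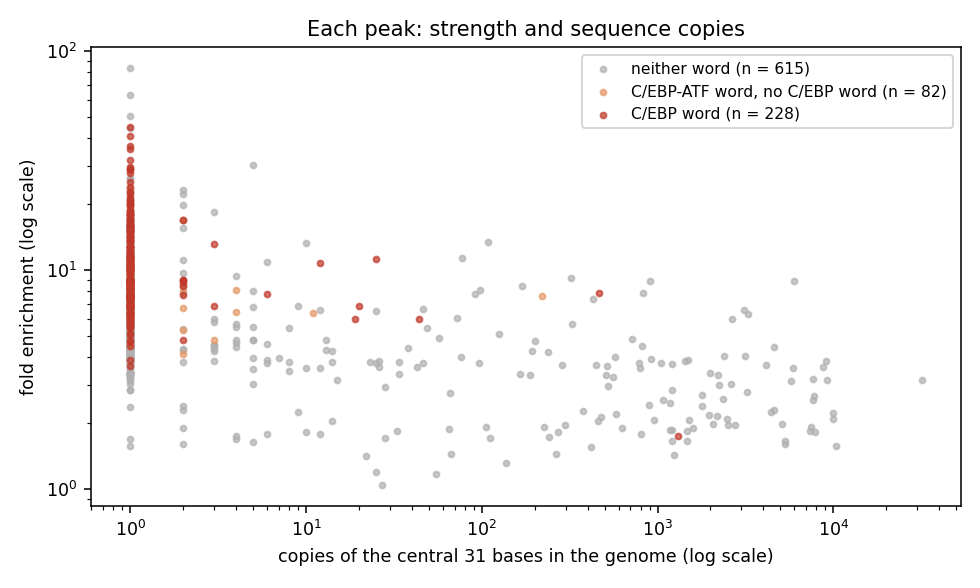
Each of the 925 peaks by the number of copies of its central 31 bases (x axis, log scale) and its fold enrichment (y axis, log scale), coloured by the words within 50 bp of the summit. Peaks with a C/EBP word sit mostly at 1 copy, where 211 of the 228 lie. Repeated peaks have a median fold of 3.81, against 7.67 for single-copy peaks. Some peaks with many copies lie higher, such as one with 5945 copies and a fold of 8.94.

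CTCF, the architectural zinc finger protein, was recovered at fewer of these peaks than at other Sp1 peaks. A peak of replicate 1 overlapped 109 of the 925 (11.8%, 9.86 to 14.0) and a peak of replicate 2 overlapped 104 (11.2%, 9.37 to 13.4). Peaks of both replicates overlapped 84 (9.08%, 7.39 to 11.1). The share over all antibody 2 peaks was 18.2%. It was 29.9% in shared distal peaks, a difference of -20.8 percentage points (-25.5 to -16.4), and 18.8% in promoter peaks of antibody 2 only, a difference of -9.70 points (-13.2 to -6.33). An interval of 380 bp, the median width here, would meet a CTCF peak at 1.46% of positions for replicate 1 and 1.10% for replicate 2.

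Where CTCF overlapped in both replicates, its median fold was 62.8 in replicate 1 (quartiles 17.6 and 111) and 31.1 in replicate 2 (9.37 and 62.7). Over all CTCF peaks that overlap a peak of the other replicate, the medians were 41.6 (17.4 and 83.7) and 21.6 (9.13 and 43.1), so the ranges between quartiles overlapped. The summits lay a median of 100.5 and 76.5 bp from the Sp1 summit, and 42 and 49 of the 84 were within 100 bp. The CTCF core word was held by 4 of the 84 windows at the Sp1 summit (4.76%) and by 14 at the CTCF replicate 1 summit (16.7%). The C/EBP word was as common at these peaks as elsewhere, at 20 of 84 (23.8%, 16.0 to 33.9) and 208 of 841 (24.7%, 21.9 to 27.8), with overlapping intervals.

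**Figure D5:**
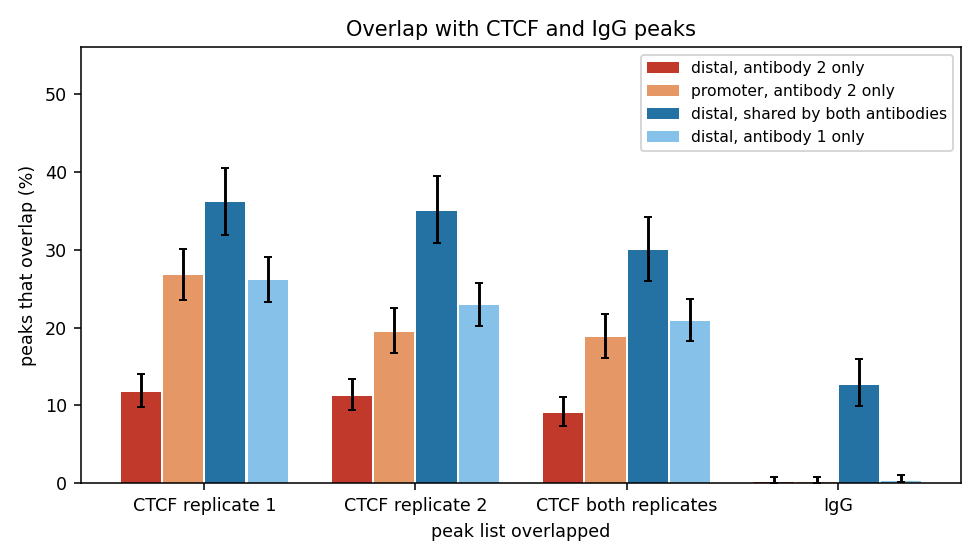
Share of peaks, in percent, that share at least 1 bp with a CTCF or IgG peak in 4 sets of Sp1 peaks, with 95% Wilson intervals as error bars. Both CTCF replicates together overlap 9.08% of the 925 peaks and 29.9% of the shared distal peaks, and IgG overlaps 0.216% and 12.6%.

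IgG recovered 2 of the 925 peaks (0.216%, 0.0593 to 0.785), against 1.11% of all antibody 2 peaks and 12.6% (9.90 to 15.9) of shared distal peaks. Both were weak and repeated. The peak at chr17:26883988-26884317 had a fold of 1.31 with antibody 2 and 1.42 with IgG, and its central 31 bases had 137 copies. The peak at chr1:143251655-143251983 had folds of 1.17 and 1.37, with 55 copies. The IgG list is short, so a peak without an IgG call is not shown to lack background.

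Of the summits, 466 lay in introns (50.4%, 47.2 to 53.6), 421 between genes (45.5%, 42.3 to 48.7), 34 in exons outside coding sequence and 4 in coding exons. Of all bases more than 1 kb from a start, 55.3% are intronic and 41.1% intergenic. The intronic share was 9.78 percentage points higher than in shared distal peaks (4.24 to 15.2). Against distal peaks of antibody 1 only, the difference was 0.722 points (-3.89 to 5.33). In single-copy peaks of the set the intronic share was 55.4%. The median distance was 11.9 kb to the nearest start of any gene and 33.4 kb to that of a protein-coding gene, and 110 summits were more than 100 kb from any start. The 51 peaks with a GC box lay nearer to starts, at a median of 3.40 kb, and 31 of them were within 5 kb, against 63 of the 228 with the C/EBP word.

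The strongest peak of the set was chr17:65122889-65123616, in an intron of RGS9, a regulator of G protein signalling. Its fold was 83.4, its printed window was 74.3% G and C, and no CTCF peak overlapped. The second, chr12:44948510-44949187, lay 27.0 kb from the start of NELL2, a secreted signalling protein, with a fold of 62.9 and CTCF folds of 117 and 119 in replicates 1 and 2. The third, chr20:63628046-63628987, was in an exon of the non-coding gene MHENCR, at 1.24 kb from its start, with a fold of 50.7. The fifth, chr14:68824570-68825285, was 28.7 kb from ZFP36L1, which destabilises AU-rich mRNAs, with a fold of 44.7 and CTCF folds of 209 and 98.7. None of these 4 held a C/EBP, composite or AP-1 word. The peak of rank 4, with a fold of 44.8, held the C/EBP word.

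The peaks ranked sixth to ninth by fold, like that of rank 4, held the C/EBP word. The sixth, chr4:73704411-73705068, was 35.8 kb from CXCL8, the chemokine interleukin-8, with a fold of 40.7, and held both TTGCGCAA and TGACTCA. The seventh, chr2:139122512-139123163, was 342 kb from the nearest coding start, that of NXPH2, and had a fold of 36.9. The eighth, chr5:36657458-36658091, lay in an intron of SLC1A3, a glutamate transporter, with a fold of 35.9. The ninth, chr6:45445700-45446389, lay in an intron of RUNX2, the master regulator of osteoblasts, with a fold of 31.96 and both the C/EBP and composite words.

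The tenth, chr4:2429835-2430794 in an intron of CFAP99, had a fold of 30.0 and lay in a tandem repeat with 5 copies of its central 31 bases. Its window contained TTACGCAA. The third strongest with CTCF in both replicates was chr11:69918517-69919246, 67.0 kb from ANO1, a chloride channel, with a fold of 29.4, CTCF folds of 177 and 110, and a C/EBP word. AP-1 words without a C/EBP word were found at chr1:39392014-39392516 in an intron of MACF1, which links actin and microtubules, with a fold of 26.5. Another lay at chr19:44741630-44742249, 5.74 kb from BCL3, a nuclear IkB protein, with a fold of 23.3. The composite word without a C/EBP or AP-1 word was found at chr12:42961409-42961959, 371 kb from PRICKLE1, with a fold of 23.4, and at chr5:126676134-126676572, 43.8 kb from TEX43, with a fold of 18.6, CTCF folds of 84.9 and 29.9 and the CTCF core word.

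Of the 925 peaks, 643 had a protein-coding start within 100 kb, and as the nearest start they reached 601 of 19962 protein-coding genes (3.01%). Gene lists were read against this share and against the length of sequence for which each gene is the nearest. Per Mb of such sequence the rate was 0.378 peaks over all genes (95% Poisson interval 0.349 to 0.408). Nearness does not show that a gene is a target.

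The list of YAP and TGF-beta genes, which holds pathway components as well as targets, had the highest share of the 7 gene lists. It had peaks at 5 of 24 genes (20.8%, 9.24 to 40.5), with 2.13 peaks per Mb (0.856 to 4.39). These values rest on 7 peaks, of which 2 held a C/EBP word, against 161 of the 643 over all genes. The genes with a peak included AMOTL2, SMAD3, TEAD1 and TGFBR2. The peak at chr11:12802470-12803093, in an intron of TEAD1, the DNA-binding partner of YAP, had a fold of 23.9 and a C/EBP word. The stronger of 2 peaks assigned to SMAD3, a TGF-beta signal transducer, was at chr15:67024285-67024806 with a fold of 13.5 and an AP-1 word. The peak at chr3:30597249-30597613 lay 9.17 kb from TGFBR2, the type II receptor, with a fold of 8.37 and a C/EBP word.

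Bone lineage genes with a peak numbered 4 of 29 (13.8%, 5.50 to 30.6), at 0.969 peaks per Mb (0.264 to 2.48), an interval that includes the rate over all genes. They were ALPL, BMPR1B, RUNX2 and TNFRSF11B. BMPR1B, a bone morphogenetic protein receptor, had a peak in an intron at chr4:95129949-95130338 with a fold of 17.0. TNFRSF11B, the decoy receptor osteoprotegerin, had one at 23.7 kb with a fold of 10.4 and an AP-1 word.

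Actin and adhesion genes with a peak numbered 5 of 39 (12.8%), at 0.768 peaks per Mb (0.250 to 1.79), and collagen and matrix genes 4 of 39 (10.3%), at 0.693 per Mb (0.189 to 1.77). LPP, a focal adhesion protein, had one with a fold of 7.84, and ACTB one at 1.38 kb from its start with a fold of 7.21. The peak assigned to COL4A1, a basement membrane collagen, was at chr13:110094506-110095106 with a fold of 14.0 and a C/EBP word. VCAN, a matrix proteoglycan, had a peak at 3.82 kb with a fold of 10.5, which was 0.862 kb from an antibody 1 peak, and COL6A3 one with a fold of 6.66.

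Of 29 genes of the C/EBP family and stress response, 2 had a peak (6.90%, 1.91 to 21.96), with 3 peaks in all and 0 C/EBP words among them. The rate was 1.69 peaks per Mb (0.348 to 4.94), an interval that includes the rate over all genes. TRIB1, which promotes degradation of C/EBP proteins, was assigned peaks 79.7 and 91.9 kb from its start, with folds of 17.2 and 6.46. SLC7A5, an amino acid transporter of the stress response, had one at 9.9 kb with a fold of 11.2 and the composite word. Of 27 AP-1 and immediate early genes, 2 had a peak (7.41%), at 1.02 per Mb (0.123 to 3.68), namely MYC and DUSP1. The peak assigned to MYC lay in an intron of PVT1, 70.6 kb from the MYC start, with a fold of 7.11. The peak assigned to DUSP1 lay 64.0 kb away, with a fold of 3.40, a −log10 q of 1.35 and CTCF folds of 53.4 and 28.1. Of 78 cytosolic ribosomal protein genes, 1 had a peak (1.28%), at 0.468 per Mb (0.0119 to 2.61). It was RPL27, with a fold of 6.00 at a sequence whose central 31 bases had 2637 copies.

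Peaks next to the limits of the definition were as follows. The members with summits nearest to a start were at chr12:9721473-9721774, 1013 bp from CLECL1P with a fold of 9.13, and at chr20:56249464-56250001, 1030 bp from MC3R with a fold of 20.5. Just outside were peaks at 955 and 950 bp, with folds of 10.9 and 4.87. The member nearest to an antibody 1 peak, chr21:8993933-8994278, was 140 bp away with a fold of 2.83, and the next was 241 bp away with a fold of 3.21. Distal peaks just outside shared 2 and 7 bp with antibody 1, with folds of 3.52 and 4.11. An antibody 1 peak lay within 1 kb of 17 members and within 10 kb of 102, and the median gap was 128 kb. The definition used the antibody 1 list, and these counts were not compared with other peaks or positions.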

How the data were processed

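ChIP-seq peak lists from 5 of the 8 libraries were used, and the 3 inputs were not analysed here. Per the submitters' processing notes the authors used cutadapt 2.6, Bowtie2 2.4.5, SAMtools 1.15.1, deepTools 3.5.4, MACS2 2.2.7.1 and bedtools 2.27.1, with hg38. The deposited values are the linear fold enrichment, a ratio made by the authors, and 2 deposited −log10 values, for the p-value and the q-value. The deposited score was not used. Each list was called on 1 library and ends near a −log10 q of 1.30 to 1.43. For the reproducibility step the study's methods give a liberal p-value cutoff, pooled controls and no local background, and for coverage files a blacklist of regions. It is not said whether the deposited lists were made in this way. The limit given here for the lists is a q-value and that cutoff is a p-value, so the limits were not compared.

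Starts and genes came from GENCODE release 44, and overlap meant at least 1 shared bp. A total of 20 words was searched, forward and reverse, from 50 bp before to 50 bp after each summit. The ETS core is part of one longer ETS word, and GC boxes and other words may overlap. The background was the share of all windows of the same length tiling chromosomes 1 to 22 and X with a centre over 1 kb from a start, and windows 500 bp from the same summits. Genes were assigned by nearest protein-coding start within 100 kb. Shares carry 95% Wilson intervals and differences 95% Newcombe intervals, for counting error alone. Peaks are not replicates, so no p-value was computed. The code was tested on simulated data (Python 3.11.15, numpy 2.4.6, scipy 1.17.1).

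The set, the words, the 7 gene lists and the alternatives were chosen with earlier results of these data known. Named peaks were the 10 strongest without IgG, the 3 strongest for each word held by at least 5% of peaks and at least 2 times as frequent as 500 bp away (C/EBP, C/EBP-ATF and AP-1), the 3 strongest with CTCF in both replicates, up to 3 per gene list, peaks with IgG, and those next to each limit. Sequences of repeated peaks, single spellings, ATTCC counts and megabase clusters were chosen after values were seen. A few peaks that this rule names are not reported here.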

Additional observations from a re-analysis of the deposited data

How the results depend on the processing

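No paired analysis was possible because the replicate numbers link CTCF with its inputs alone, and those were not analysed here. Of the 6 kinds of planned change in the set, a −log10 q of at least 3 raised the C/EBP share to 27.8% and the median fold to 7.602. Summits over 5 kb from every start lowered the GC box share to 2.99% and the intronic share to 44.8%. The stronger 50% by fold, 462 peaks by construction, gave 39.4% for C/EBP, 11.9% for AP-1, 3.68% for the GC box, 55.2% for introns, a median fold of 9.71 and an IgG share of 0%. Peaks with single-copy central 31 bases, an alternative added after seeing the data, gave 30.1% for C/EBP, 55.4% for introns, a median fold of 7.67 and an IgG share of 0%. Windows of 100 bp to each side gave 15.5% for AP-1 and 8.86% for the GC box, and windows of 25 bp gave 2.92% and 2.38%. Requiring summits within 100 bp lowered the CTCF share to 4.43%, and with either CTCF replicate left out it ranged from 11.2% to 11.8%. Apart from fewer peaks or wider windows by construction, the cause was not tested. The C/EBP share lay between 23.03% and 39.4% under all alternatives run. The lists give no depth, so peaks missed for lack of reads cannot be counted.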

Other observations

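The word CACTCCAG, part of the consensus of Alu elements, was held within 50 bp of the summit by 35 of the 925 distal peaks of antibody 2 only (3.78%, 95% interval 2.73 to 5.22), against 2.31% of genome windows and 2.81% of windows 500 bp from the same summits. Among the 49 peaks with AGATTGCG, one of the words picked after values were seen, 22 held it (44.9%, 31.9 to 58.7), against 7.14% of their neighbouring windows. Of the 228 peaks with the C/EBP word, 6 held it (2.63%). Genes with 3 peaks nearest to them were ABTB2, ADGRD1, CDC42EP4, DUX4, KIAA1217 and ZDHHC11B. The peaks of DUX4 and ZDHHC11B were all in repeated sequence. Those of ABTB2, ADGRD1, CDC42EP4 and KIAA1217 were all single-copy, and at least 1 peak of each of these 4 genes held a C/EBP word.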
